A study of Sus scrofa with 4 samples.

Results

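The miR-26 family was represented by miR-26a, 1 of the 271 known miRNAs listed with read counts. It was found by its base name, the name without an arm suffix. miR-26a had a single row that names no arm, so its arms could not be compared. The rule also covers miR-26b. miR-26b was not analysed here, nor was the ratio of miR-26a to miR-26b. The counts came from small RNA libraries of longissimus dorsi, a back muscle that runs along the spine, with 1 library for each of 4 pig breeds. The labels class Diannan Small Ear pigs and Tibetan pigs as indigenous Chinese, and Landrace and Yorkshire as introduced, so each type had 2 libraries. The labels name no treatment, age, sex or batch and do not say whether a library held 1 animal or a pool. The libraries did not group by type: miR-10b was the most abundant miRNA in Diannan Small Ear and Landrace and miR-1 in Tibetan and Yorkshire. Values are therefore given for each library before any mean over a type.

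miRNAs are short RNAs that guide a silencing complex to partly complementary sites in mRNAs, chiefly through a seed near their 5′ end. Members of the miR-26 family share their seed and lie in introns of the CTDSP genes, which encode small phosphatases. In mouse myoblasts miR-26a represses EZH2, a histone methyltransferase that keeps muscle genes silent, and the BMP and TGF-beta mediators SMAD1 and SMAD4. In human fat cell precursors the family favours differentiation. In RefSeq's annotation of the pig assembly Sscrofa11.1, MIR26A, the gene of the miR-26a hairpin, lies within the protein-coding gene CTDSP2. The mature sequences of the family differ from each other at few bases. The sources used here do not give how reads that fit more than 1 of them were counted, and the miR-26a counts are uncertain to that extent.

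miR-26a was abundant in the muscle of every breed. It had 129262 reads in Diannan Small Ear and 94144 in Landrace, against 24148 in Tibetan and 17098 in Yorkshire. These were 2.87% of the Diannan Small Ear counts (95% Wilson interval 2.86 to 2.89), 3.76% of the Landrace counts (3.73 to 3.78), 0.672% of the Tibetan counts (0.664 to 0.681) and 0.320% of the Yorkshire counts (0.315 to 0.325). Diannan Small Ear and Landrace, 1 breed of each type, held the higher shares, and the types overlapped. Intervals here and below reflect counting error alone and treat reads as independent. The sources used here do not say how PCR copies of a molecule were counted, so the intervals may be too narrow.

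By count, miR-26a ranked 4 of 249 detected miRNAs in Diannan Small Ear, 5 of 253 in Landrace, 7 of 246 in Tibetan and 5 of 232 in Yorkshire. Its rank therefore varied little while its share varied 11.7-fold. In Diannan Small Ear it followed miR-10b, miR-486 and miR-133a-3p. In Landrace miR-22-3p stood above it as well. In Yorkshire miR-1, miR-206, miR-133a-3p and miR-21 were above it, and in Tibetan these 4 together with miR-143-3p and miR-99a.

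**Figure D1:**
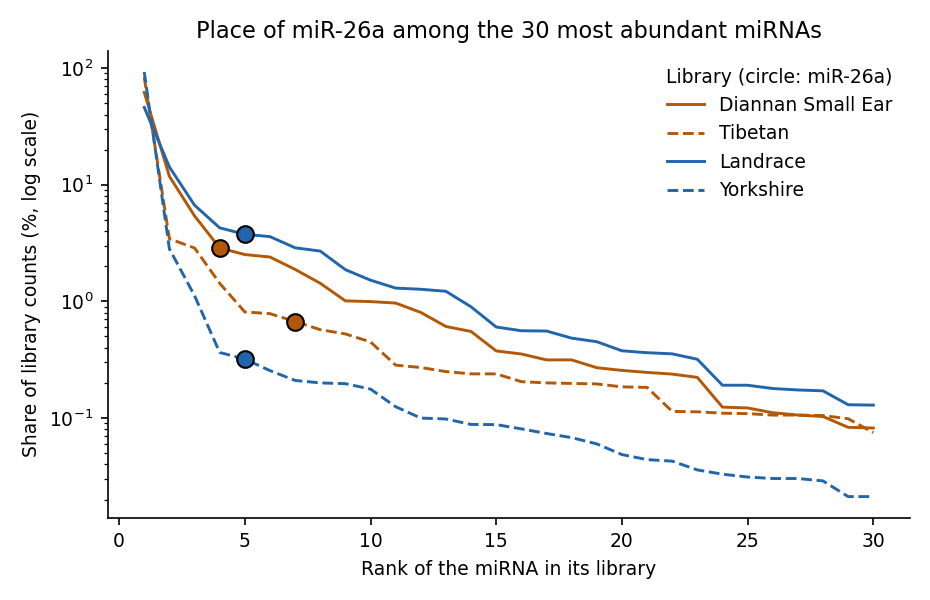
Share of library counts (%, log scale) against rank for the 30 most abundant miRNAs of each library, with 1 line per breed and a circle at miR-26a. The circles sit between ranks 4 and 7 in all 4 libraries, at shares from 0.320% in Yorkshire to 3.76% in Landrace.

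A share depends on the miRNAs that fill the rest of the library. miR-1, a muscle miRNA that promotes myoblast differentiation, filled 83.4% of the Tibetan and 92.6% of the Yorkshire counts, the libraries with the low shares of miR-26a. miR-10b, from a HOX gene cluster, filled 61.9% and 46.0% in Diannan Small Ear and Landrace. With miR-1, miR-10b, miR-486, miR-133a-3p and miR-22-3p left out, which are the 5 most abundant miRNAs other than miR-26a, its share of the remaining counts was 15.7% in Diannan Small Ear (15.6 to 15.8) and 13.2% in Landrace (13.1 to 13.3), against 5.37% in Tibetan (5.30 to 5.43) and 5.52% in Yorkshire (5.44 to 5.60). On this scale the range over the breeds was 2.92-fold in place of 11.7-fold. miR-26a was then the most abundant miRNA left in Diannan Small Ear and in Landrace, and ranked 5 in Tibetan and 3 in Yorkshire.

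Scaling by TMM, which sets library sizes from a trimmed mean of the ratios between libraries, gave 21560 CPM in Diannan Small Ear, 16970 in Landrace, 9283 in Yorkshire and 6826 in Tibetan (CPM, counts scaled to a common library total). Diannan Small Ear was highest and Tibetan lowest, with the introduced breeds between them. RLE and upper-quartile scaling and the share without the 5 miRNAs gave the same order of breeds. With total counts Landrace was highest and Yorkshire lowest, at 37550 and 3198 CPM. Diannan Small Ear and Landrace lay above Tibetan and Yorkshire on each of these 5 scales. With 1 library per breed no neighbours in these orders could be compared with a spread between replicates. In tissue samples such as these, fewer cells of a type and less of an RNA per cell cannot be told apart.

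**Figure D2:**
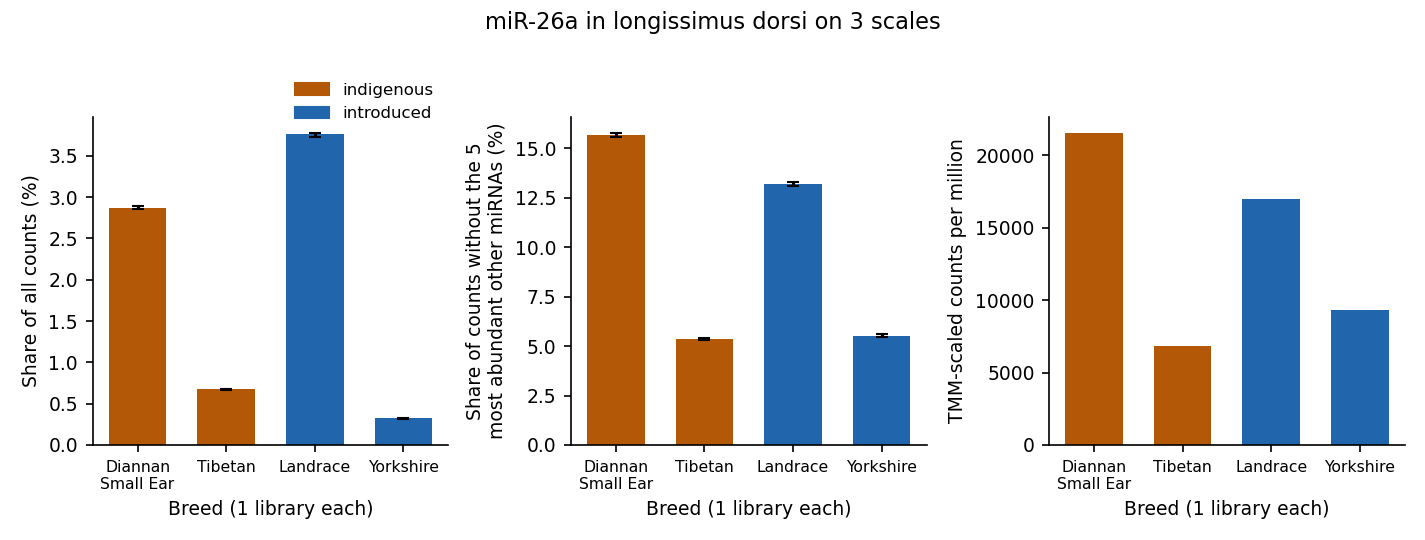
miR-26a in each breed as a share of all counts (%), as a share of the counts left without the 5 most abundant other miRNAs (%), and as TMM-scaled CPM; bars are single libraries coloured by type, and error bars in the first and middle panels are 95% Wilson intervals of counting error. Diannan Small Ear and Landrace stand above Tibetan and Yorkshire on all 3 scales, while the order within each of these couples changes with the scale.

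Markers of muscle and of other cell types were set beside these levels. Striated muscle markers, led by miR-1, miR-133a-3p and miR-206, made up 5.83% of the Diannan Small Ear and 7.36% of the Landrace counts, but 89.9% of the Tibetan and 96.7% of the Yorkshire counts, where miR-26a had its low shares. The labelled tissue was thus marked unevenly. miR-1 alone held 0.256% in Diannan Small Ear and 0.355% in Landrace. miR-133a-3p, also a defining miRNA of striated muscle, held 5.41%, 6.68%, 2.87% and 1.12% in the order Diannan Small Ear, Landrace, Tibetan, Yorkshire. After TMM scaling it spanned only 1.39-fold, at 40620, 30190, 29180 and 32540 CPM in that order. On this scale miR-1, miR-206, miR-133a-5p, miR-499-5p and miR-499-3p were higher in Tibetan and Yorkshire. miR-208b was higher in Diannan Small Ear and Landrace, and miR-133b was highest in Yorkshire and lowest in Tibetan. The summed share of the 3 erythroid markers was 11.8%, 14.3%, 0.609% and 0.204% in the same order, and so moved with miR-26a, but nearly all of it was miR-486, which muscle also makes. The red cell miRNAs miR-451 and miR-144 did not follow it. miR-451 measured 63.7, 111, 234 and 93.4 TMM-scaled CPM in that order, and miR-144 measured 3.67, 6.31, 136 and 44.0 CPM, lower where miR-26a was higher. TMM-scaled sums in the same order of libraries were 194, 170, 320 and 240 CPM for white blood cells. For smooth muscle and fibroblasts (miR-143, miR-145, miR-199 and miR-214) they were 11320, 13680, 16990 and 9092 CPM. For endothelium (miR-126) they were 2511, 2906, 3011 and 1817 CPM, but its arms differed. miR-126-5p was higher in Diannan Small Ear and Landrace, at 2365, 2726, 1859 and 1238 CPM in that order. miR-126-3p was higher in Tibetan and Yorkshire, at 146, 180, 1152 and 578 CPM. The liver markers summed to 507, 435, 17.2 and 20.1 TMM-scaled CPM in the same order of libraries, and this sum also moved with miR-26a. In Diannan Small Ear and Landrace nearly all of it was miR-192, which measured 499, 417, 7.07 and 7.06 TMM-scaled CPM in that order. The liver-specific miR-122 measured 2.67, 14.1, 2.83 and 4.89 CPM, from 16, 78, 10 and 9 reads. miR-194a measured 5.67, 3.43, 7.35 and 8.14 CPM. Neither miR-122 nor miR-194a followed miR-26a. With total counts, neural markers did not exceed 5.56 CPM and epithelial markers 7.18 CPM. The part of these in the level of miR-26a was not tested.

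Like most tested miRNAs with reads in all 4 libraries, miR-26a differed between breeds of the same type in the same direction in both types. After TMM scaling it was 3.16-fold higher in Diannan Small Ear than in Tibetan (95% exact counting interval 3.12 to 3.20) and 1.83-fold higher in Landrace than in Yorkshire (1.80 to 1.86). With total counts these ratios were 4.27 and 11.7. Of the miRNAs with reads in both libraries of a comparison, 27.3% were at least 2-fold higher in Diannan Small Ear than in Tibetan and 32.3% at least 2-fold higher in Landrace than in Yorkshire. Differences of at least 2-fold were therefore common among these libraries, and miR-26a passed 2-fold in the first comparison and not in the second. In the second it did so with RLE (2.12) and upper-quartile scaling (2.52) and with total counts.

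Set against the other miRNAs, which removes the choice of scaling, the log2 ratio of miR-26a exceeded the median log2 ratio of all tested miRNAs by 1.85 for Diannan Small Ear over Tibetan and by 1.08 for Landrace over Yorkshire. In the indigenous comparison 36 of 194 miRNAs had a larger ratio than miR-26a, and in the introduced comparison 66 of 192. miR-26a thus stood in the upper part of the order in both. No test was possible between single libraries.

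**Figure D3:**
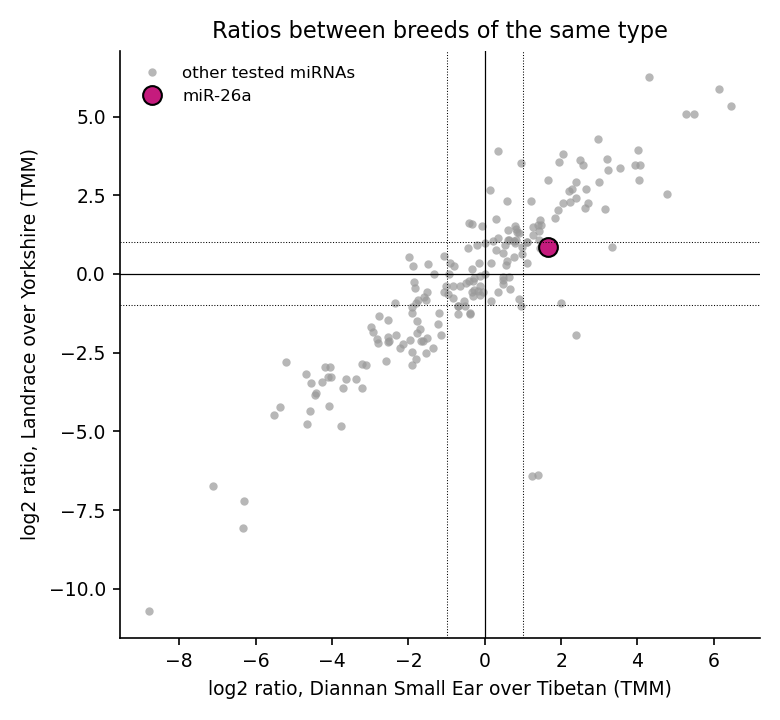
log2 ratio of TMM-scaled counts of Diannan Small Ear over Tibetan (x axis) and of Landrace over Yorkshire (y axis), 1 point per tested miRNA with reads in all 4 libraries; dotted lines mark 2-fold. miR-26a lies at 1.66 on the x axis and 0.87 on the y axis, above 0 on both. Most of the miRNAs have the same sign on both axes.

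The remaining comparisons join a breed of each type, and they share libraries with those above. miR-26a was 2.32-fold higher in Diannan Small Ear than in Yorkshire (2.29 to 2.36), where 32.8% of miRNAs were at least 2-fold higher. It was 2.49-fold higher in Landrace than in Tibetan (2.45 to 2.52), where 29.9% of miRNAs were at least 2-fold lower in Tibetan. The ratios of the other two comparisons were smaller. Diannan Small Ear over Landrace was 1.27 (1.26 to 1.28), and 4.08% of miRNAs were at least 2-fold higher there. Yorkshire over Tibetan was 1.36 (1.33 to 1.39), and 9.9% of miRNAs were at least 2-fold lower in Tibetan. Both of these turned with total counts, to 0.765 for Diannan Small Ear over Landrace and to 2.10 for Tibetan over Yorkshire. Relative to the median log2 ratio of all miRNAs, the log2 ratio of miR-26a was 0.31 for Diannan Small Ear over Landrace and -0.62 for Tibetan over Yorkshire. The indigenous breed was thus above the introduced one in the first and below it in the second.

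The comparison of types asks whether muscle of indigenous and introduced breeds differs. The TMM-scaled level of miR-26a was 14200 ± 10400 CPM over the indigenous libraries (SD, n = 2) and 13100 ± 5440 CPM over the introduced ones (SD, n = 2). The log2 fold change of indigenous over introduced was 0.11 ± 1.29 (SE, edgeR quasi-likelihood test, adjusted p = 0.996), and miR-26a did not pass the threshold of 0.05. The difference was far smaller than the spread between breeds of a type. Of 197 tested miRNAs, 0 (0%) passed in either direction by edgeR, DESeq2 or limma-voom, and each of these tools gave 1 miRNA a p below 0.05 before adjustment. An exact permutation test of log2 TMM-scaled CPM over the libraries gave a two-sided p of 1.0, where 2 against 2 libraries can reach no less than 0.333. The types did not overlap for 8.12% of the tested miRNAs with higher and 5.58% with lower levels in indigenous breeds, and miR-26a was not among these.

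The sign of the estimate changed with the processing and with the libraries used. It was -0.20 ± 3.22 with total counts and -0.042 ± 1.31 with limma-voom. Leaving out Diannan Small Ear gave -1.07 ± 2.60 and leaving out Yorkshire -0.37 ± 3.25, whereas it was 0.72 ± 1.88 without Tibetan and 0.78 ± 3.40 without Landrace. A fit with a term for library couples, in which Landrace is joined to Diannan Small Ear and Yorkshire to Tibetan, gave -0.049 ± 0.42, the smallest SE of the fits (edgeR adjusted p = 0.981). That SE rests on 1 residual degree of freedom and on the spread shared over all miRNAs.

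The authors' deposited table lists mean values for miR-26a of 17700 CPM for the indigenous and 20400 CPM for the introduced type, and a fold of 0.870. In the authors' deposited table this carries a p-value of 6.79e-43 and an FDR of 1.15e-41, the sixteenth smallest FDR of the table. The authors' deposited table gives an FDR under 0.05 for 83 of 271 miRNAs (30.6%). The sources used here do not name the test behind these values. The fold equals the ratio of plain means of the CPM values of both libraries of a type, which were 28720 CPM (Diannan Small Ear) and 6721 CPM (Tibetan) against 37550 CPM (Landrace) and 3198 CPM (Yorkshire).

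**Figure D4:**
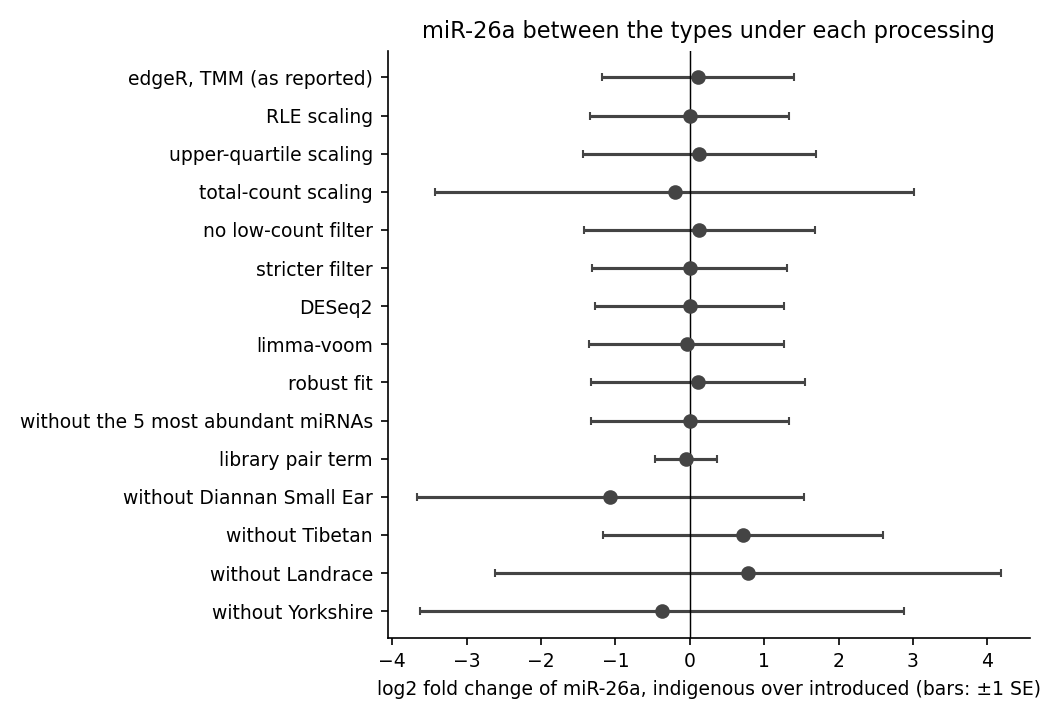
log2 fold change of miR-26a, indigenous over introduced, with bars of 1 SE, for the reported fit and for each alternative processing. All 15 bars cross 0, and the estimates run from -1.07 when Diannan Small Ear is left out to 0.78 when Landrace is left out.

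Among the 10 miRNAs with the largest mean share, miR-26a stood at place 5 with 1.90% ± 1.67 (SD over 4 libraries). By the ratio of the highest to the lowest TMM-scaled level, 2 of the 10, miR-133a-3p and miR-143-3p, varied less than miR-26a. This ratio was 3.16 for miR-26a, 1.39 for miR-133a-3p, a miRNA linked to myoblast proliferation, and 1.97 for miR-143-3p, typical of smooth muscle and fibroblasts. By the same ratio these 2 varied less under RLE, total-count and upper-quartile scaling as well. The largest of the 10, for miR-1, was 1670. Among the 81 other miRNAs that averaged 100 CPM or more and had reads in every library, the median of this measure was 5.0 and 31 were below miR-26a. With total counts miR-26a reached 11.7 and 42 were below it, so its place near the middle of abundant miRNAs moved with the scaling.

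Ratios within a library need no scaling. For each read of miR-133a-3p there were 0.531 reads of miR-26a in Diannan Small Ear and 0.562 in Landrace, against 0.234 in Tibetan and 0.285 in Yorkshire. Relative to this muscle miRNA, miR-26a was again higher in Diannan Small Ear and Landrace. For each read of miR-143-3p the values were 2.0, 1.30, 0.469 and 1.25 in the same order of breeds, with Landrace and Yorkshire nearly level. For each read of miR-1 they were 11.2, 10.6, 0.00806 and 0.00345, and for each read of miR-10b 0.0464, 0.0817, 1.28 and 1.81. miR-26a thus outnumbered miR-1 in Diannan Small Ear and Landrace and outnumbered miR-10b in Tibetan and Yorkshire. Reads of miR-26a per read of miR-22-3p were 1.20, 0.880, 6.34 and 5.33, and per read of miR-486 they were 0.244, 0.264, 1.17 and 1.60. The muscle miRNA miR-206 resembled miR-1, with 48.6 and 30.6 reads of miR-26a for each of its reads in Diannan Small Ear and Landrace, but 0.195 and 0.113 in Tibetan and Yorkshire. For miR-191 the values were 1.14 and 1.05 in the first couple of breeds and 14.0 and 19.2 in the other. For miR-10a-5p, from a HOX cluster, they were 1.53 and 1.39 against 21.5 and 25.7.

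The miRNAs whose profile over the 4 libraries was most like that of miR-26a were found by the root mean square difference of log2 values centred on their mean, a measure that no scaling changes. Of these 81 miRNAs, the 5 nearest were miR-30a-3p (0.20), miR-30e-3p (0.20), miR-27b-3p (0.26), miR-30d (0.28) and miR-16 (0.29). The median candidate was at 1.04 and the farthest, miR-1, at 5.52. The likeness is a description over 4 libraries, and no test was made.

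miR-30a-3p and miR-30e-3p, arms of miR-30 precursors, were far less abundant than miR-26a. miR-30a-3p measured 101 TMM-scaled CPM in Diannan Small Ear and 111 in Landrace, against 42.1 in Tibetan and 47.2 in Yorkshire. miR-30e-3p measured 358, 373, 166 and 184 CPM in that order. Both were highest in Landrace, where miR-26a was second, and lowest in Tibetan. Other miR-30 rows varied in their root mean square difference from miR-26a. It was 0.34 for miR-30a-5p, 0.81 for miR-30c-5p, 0.87 for miR-30e-5p and 1.02 for miR-30b-5p. miR-30e-5p, the other arm of miR-30e, measured 2029, 1706, 2540 and 2549 CPM in that order, higher in Tibetan and Yorkshire.

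miR-27b-3p, which restrains fat cell differentiation and represses Pax3 in mouse muscle precursors, was the most abundant of the 5. It measured 7259 TMM-scaled CPM in Diannan Small Ear and 8461 in Landrace, against 2754 in Tibetan and 2901 in Yorkshire. In that order of breeds there were 2.97, 2.01, 2.48 and 3.20 reads of miR-26a for each of its reads, a range of 1.60-fold over the breeds. For miR-30d the reads of miR-26a per read were 8.11, 6.70, 6.13 and 10.3, and for miR-16, of the miR-15/16 family that restrains the cell cycle, 25.8, 21.6, 17.5 and 15.1. Both miR-30d and miR-16 were highest in Diannan Small Ear, as miR-26a was, and miR-16 was also lowest in Tibetan, while miR-30d was lowest in Yorkshire.

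**Figure D5:**
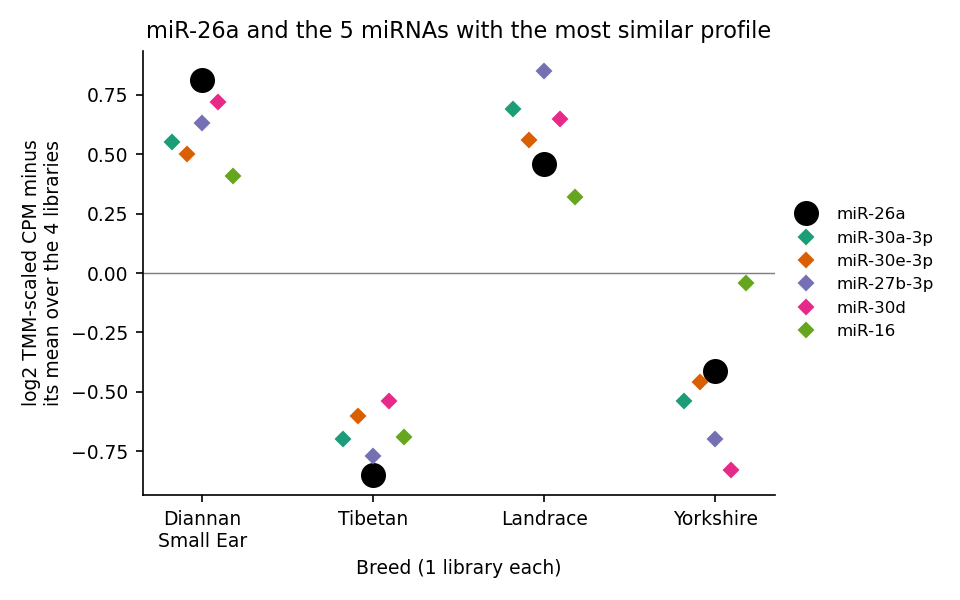
log2 TMM-scaled CPM minus its mean over the 4 libraries for miR-26a (black circles) and the 5 miRNAs with the smallest root mean square difference from it (diamonds), by breed. miR-26a lies at 0.81 in Diannan Small Ear, 0.46 in Landrace, -0.85 in Tibetan and -0.41 in Yorkshire. The 5 others were chosen for likeness in these values and so largely share its signs, with miR-16 near 0 in Yorkshire (-0.04).

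Other miRNAs reported to repress EZH2 did not share one pattern. The list held 7 names, with 6 rows, and 4 were tested, of which 1 had a higher and 3 a lower estimate in indigenous breeds and 0 passed. The median log2 fold change was -0.32, against 0.12 over all 197 tested miRNAs, of which 120 had a higher and 77 a lower estimate. let-7a measured 4570 TMM-scaled CPM in Diannan Small Ear and 5855 in Landrace, against 492 in Tibetan and 598 in Yorkshire, a larger contrast in the direction of miR-26a. miR-101 measured 775, 771, 2884 and 5720 CPM in that order, the opposite direction. miR-98, of the let-7 family, measured 301, 342, 154 and 218 CPM. Of the 3 most abundant members, let-7a and miR-98 were therefore higher in Diannan Small Ear and Landrace, and miR-101 in Tibetan and Yorkshire.

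Other miRNAs of myoblast proliferation and differentiation had 28 rows for 21 names. Of 27 tested, the estimate was higher in indigenous breeds for 13 and lower for 14, 0 passed, and the median was -0.01. Over all 197 tested miRNAs it was higher for 120 and lower for 77, 0 passed, and the median was 0.12. The most abundant members of the list, miR-1, miR-486 and miR-133a-3p, had log2 fold changes of -1.66 ± 4.15, 0.43 ± 2.09 and 0.15 ± 1.33 (edgeR adjusted p = 0.996 for each). Between Diannan Small Ear and Tibetan 9 of the 27 tested were at least 2-fold higher and 10 at least 2-fold lower in Diannan Small Ear. Of all miRNAs with reads in both, 27.3% and 36.6% were. Between Landrace and Yorkshire 7 of 26 were at least 2-fold higher and 9 at least 2-fold lower in Landrace. Over all miRNAs with reads in both of these libraries the counts were 62 and 66 of 192.

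Other miRNAs of fat cell differentiation had 37 rows for 27 names, and 30 were tested. The estimate was higher in indigenous breeds for 20 and lower for 10, where it was higher for 120 and lower for 77 of all 197 tested miRNAs. Of the list 0 passed, and the median was 0.14, near the 0.12 of all tested miRNAs. miR-143-3p, which promotes fat cell differentiation, had a log2 fold change of 0.31 ± 1.14, miR-27b-3p -0.18 ± 1.19, and miR-378, encoded in the gene of a metabolic coactivator, 0.41 ± 1.30 (edgeR adjusted p = 0.996 for each). miR-378 measured 7475 TMM-scaled CPM in Diannan Small Ear and 5720 in Landrace, against 1988 in Tibetan and 1411 in Yorkshire, and like miR-26a it was higher in Diannan Small Ear and Landrace. miR-21, also of this list, measured 603, 864, 7970 and 10580 CPM in that order, the opposite direction. Between Diannan Small Ear and Tibetan, 11 of 30 were at least 2-fold higher and 9 at least 2-fold lower in Diannan Small Ear. Between Landrace and Yorkshire, 13 of 29 were at least 2-fold higher and 8 at least 2-fold lower in Landrace. Over all miRNAs with reads in both libraries these were 53 and 71 of 194, and 62 and 66 of 192.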

How the data were processed

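Small RNA of longissimus dorsi was sequenced on a HiSeq 2000, per the labels. The authors deposited whole-number read counts for 271 known miRNAs and CPM values, per the file headers. Each CPM value equalled the count over its column total to within 4.2e-05. Library totals were 2507082 to 5346460 counts. The authors also deposited a mean signal per type, the ratio (fold) of these means, and p-values with FDR, per the file headers. Neither aligner nor miRNA database nor build is given in the sources used here.

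Types were compared with edgeR 4.0.16 (glmQLFit, glmQLFTest, two-sided) on all 4 libraries. filterByExpr left 197 miRNAs, libraries were scaled by TMM, and p-values were adjusted over the 197 by Benjamini-Hochberg. The fit had 2 residual degrees of freedom and a biological coefficient of variation of 98.6%. SE is the absolute log2 fold change over the square root of F. Nothing states that libraries came from separate animals, so p-values measure the spread between these libraries, which may be partly technical. Shares carry Wilson and ratios exact binomial intervals at 95% (scipy 1.17.1). The fits were run on simulated data as a check of the code. How many changes they recover at the spread of these data is not reported here.

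miR-26a, the lists and the tests were chosen with earlier results of these data known. Named were miR-26a, the 5 most similar profiles, the 10 largest mean shares and the 3 most abundant members of lists. miR-21, miR-99a, miR-30a-5p, miR-30b-5p, miR-30c-5p and miR-30e-5p were named after their values were seen. Alternatives were scaling by RLE, by upper quartile or by total count, no filter or at least 50 counts in 2 libraries, DESeq2 1.42.0, limma-voom (limma 3.58.1), a robust fit, leaving out the 5 most abundant other miRNAs, each library left out, and a term for the library couples.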

Additional observations from a re-analysis of the deposited data

How the results depend on the processing

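The log2 fold change of miR-26a between types changed sign with total-count scaling (-0.20), limma-voom (-0.042) and the term for the library couples (-0.049), and ranged from -1.07 to 0.78 with 1 library left out, where a lone library is assumed to vary like the others. It passed the threshold in 0 of the 15 fits. With the couple term 1 miRNA was called in place of 0, and it was not miR-26a. Without the 5 most abundant other miRNAs the share was 15.7% in Diannan Small Ear, 13.2% in Landrace, 5.37% in Tibetan and 5.52% in Yorkshire. The ratio of Diannan Small Ear over Tibetan was 3.65 with RLE, 4.27 with total counts, 4.60 with upper-quartile scaling and 4.0 without the 5 miRNAs. In the same order of settings, Diannan Small Ear over Landrace was 1.16, 0.765, 1.25 and 1.14, Diannan Small Ear over Yorkshire 2.45, 8.98, 3.17 and 2.69, Tibetan over Landrace 0.317, 0.179, 0.273 and 0.285, Tibetan over Yorkshire 0.671, 2.10, 0.689 and 0.672, and Landrace over Yorkshire 2.12, 11.7, 2.52 and 2.36. Total counts thus turned 2 of the 6 ratios, whereas RLE, upper-quartile scaling and leaving out the 5 miRNAs turned 0. The row of miR-26a names no arm, so values for a main arm alone could not be given. The labels give no replicate numbers, so no pairing by label could be fitted, and the couple term rests on earlier results of these data. miR-26a had at least 17098 reads in each library, so counting error was small beside the spread between breeds of a type. With 1 library per breed, breed and library cannot be told apart.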
